A study of Mus musculus with 64 samples.

Results

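Slc5a7, which encodes the high-affinity choline transporter, and 9 further genes of choline uptake and use were followed through 3 mouse tissues, the omental fat, the liver and skeletal muscle, with and without body-wide inactivation of Myc. The 10 genes were taken by symbol from a table of 36332 distinct gene IDs. Slc5a7 was chosen by its own readout, since its values had been seen to be high in adipose tissue at 20 months, so that age difference is given as a description without a test. The other 9 were listed for their known roles: the transporters Slc44a1 and Slc44a2, the phosphatidylcholine genes Chka, Chkb, Pcyt1a, Pemt and Chpt1, and the betaine genes Bhmt and Chdh.

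The 64 RNA sequencing libraries form 12 groups of 3 tissues, 2 genotypes and 2 ages (5 and 20 months). Wild-type (WT) mice are labelled C57/B6. Knockout (KO) mice are labelled as a cross of 2 lines. The first carries the allele Gt(ROSA)26Sortm1(cre/ERT2)Tyj, which expresses Cre fused to an oestrogen receptor part in most cell types, so that tamoxifen switches it on. The other carries Myctm2Fwa, a Myc allele that Cre can cut out. Both lines are labelled B6.129, so genotype and strain cannot be told apart. All groups are labelled as treated with tamoxifen at weaning (5 daily doses of 75 mg/kg, from a weight of 15 g). For adipose tissue and liver there are 6 young and 5 old libraries of each genotype, and for muscle 6 young WT, 4 young KO and 5 old libraries of each genotype. Single libraries are called by their label codes, such as W5F5299: W or K for the genotype, 5 or 18 for young or old, F, L or S for adipose tissue, liver or muscle, and a number. Codes with 18 are labelled as 20 months. The codes of the libraries differ within a group, but nothing in the labels states in words that each came from its own animal, so p-values measure the spread between these libraries.

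Values are the deposited library-scaled read counts, in the unit that the file headers call CPM. Depth was 15.4 to 28.5 M (mega) reads on genes. A gene is called changed at a Benjamini-Hochberg adjusted p under 0.05 from limma on log2(CPM + 1), and a log2 difference is on that scale, which understates differences of genes with few reads. In 12 young libraries (2 of every young group) Xist exceeded the sum of the Y-linked Ddx3y, Eif2s3y, Uty and Kdm5d. These are called the libraries with Xist. In the 52 other libraries, all old ones included, it did not, so age and this split are partly confounded. The labelled tissues carried their markers: sums over 6 adipocyte genes were 6614 to 26591 CPM in adipose libraries, and over 6 skeletal muscle genes 130064 to 185331 CPM in muscle libraries. Over 6 hepatocyte genes the sums were 103628 to 214784 CPM in liver libraries. Epididymis transcripts (the sum of 13 genes) reached 920 to 6243 CPM in 4 young adipose libraries, K5F4284, K5F5218, K5F5248 and W5F5299, and 126 CPM in 1 young WT muscle library, and stood at 1.49 CPM or less in the others. Outside the liver the hepatocyte sums were 109 to 4889 CPM in adipose tissue, of which Cyp2e1, a cytochrome P450 gene, made up 91.3% to 99.8% in young libraries. In muscle 1 old WT library (W18S42) reached 2802 CPM, with Alb the highest of the genes, and the others 121 CPM or less. Young livers read 19.6 ± 10.3 CPM of the targeted gene Myc in WT and 2.59 ± 1.06 CPM in KO (SD, 6 libraries each), and Myc was lower on average in KO than in WT in all 6 comparisons of genotype. It was called in adipose tissue and liver at 5 months (adjusted p = 0.017 and 0.00093, limma). In muscle at both ages, and in all tissues at 20 months, it was not called. The adipose call was lost without the 4 libraries with epididymis transcripts (adjusted p = 0.134) and without W5F5006 (0.053), and the liver call without the libraries with Xist (0.0733).

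Choline is a nutrient with 3 main fates. Neurons that make acetylcholine take it up through Slc5a7, most other cells through transporters such as Slc44a1 and Slc44a2. Inside the cell, choline kinases (Chka, Chkb) phosphorylate it, Pcyt1a activates it to CDP-choline in the regulated step, and Chpt1 joins it to diacylglycerol to give phosphatidylcholine, the main membrane phospholipid. The liver also makes phosphatidylcholine by methylating phosphatidylethanolamine (Pemt), and oxidises choline to betaine (Chdh), which then gives a methyl group to homocysteine (Bhmt). Adipocytes need phosphatidylcholine for membranes and for the surface layer of lipid droplets.

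The 250 bases before an annotated start are printed for Slc5a7, the gene by whose age difference the set was chosen, and for Pcyt1a and Chpt1, synthesis genes that the ageing results turn on. They come from RefSeq (GRCm38.p6, the build that the submitters' processing notes name), run 5′ to 3′ on the gene's strand, and have CG dinucleotides in capitals.
Slc5a7 (chr17:54299035-54299284, minus strand): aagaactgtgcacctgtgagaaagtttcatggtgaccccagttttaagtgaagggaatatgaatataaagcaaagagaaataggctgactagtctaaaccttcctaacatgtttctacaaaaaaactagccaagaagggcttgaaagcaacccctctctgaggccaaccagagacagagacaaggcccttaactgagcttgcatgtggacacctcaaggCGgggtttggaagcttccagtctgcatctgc
Pcyt1a (chr16:32430671-32430920, plus strand): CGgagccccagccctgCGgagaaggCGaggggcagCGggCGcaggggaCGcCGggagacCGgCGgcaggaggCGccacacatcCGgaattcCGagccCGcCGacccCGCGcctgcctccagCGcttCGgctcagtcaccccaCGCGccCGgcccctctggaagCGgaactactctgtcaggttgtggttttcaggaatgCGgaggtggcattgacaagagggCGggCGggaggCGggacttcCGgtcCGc
Chpt1 (chr10:88503971-88504220, minus strand): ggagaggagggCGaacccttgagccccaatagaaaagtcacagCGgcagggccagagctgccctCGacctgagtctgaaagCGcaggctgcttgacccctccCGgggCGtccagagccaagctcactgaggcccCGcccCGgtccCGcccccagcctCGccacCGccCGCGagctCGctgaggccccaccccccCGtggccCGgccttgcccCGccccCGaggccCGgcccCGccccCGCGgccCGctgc
The Slc5a7 window held 1 CG and was 45.6% G or C, against 28 CG and 71.6% for Pcyt1a and 23 CG and 75.6% for Chpt1. The median over all 32851 promoters of the same length was 6 CG and 52.4%. CACGTG, the E-box that Myc is known to bind and a palindrome that reads the same on both strands, was searched in all 17 annotated promoters of the 10 genes. It was found in 0 of them and in 6.02% of all promoters. These letters are thus not in these windows, which says nothing of binding elsewhere.

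Slc5a7 (gene ID 63993, chr17:54273590-54299038, GRCm38.p6, minus strand) was low in most young adipose libraries, some of them at 0 reads, and abundant in old adipose tissue of both genotypes. At 20 months the 5 WT adipose libraries read 72.6, 27.7, 51.2, 86.5 and 59.2 CPM (59.4 ± 22.3 CPM, SD). The 5 KO libraries of that age read 53.9, 21.4, 17.7, 36.9 and 20 CPM (30 ± 15.4 CPM). At 5 months the 6 WT libraries ran from 0 over a median of 0.232 to 1.88 CPM, with 3 of them at 0 reads. The 6 KO libraries of that age ran from 0.0363 over a median of 0.189 to 15.7 CPM. All 10 old libraries thus stood above all 12 young ones, and a single young library, K5F5218 with 492 Slc5a7 reads, came near the lowest old library at 17.7 CPM.

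The log2 difference of Slc5a7 between 20 and 5 months in adipose tissue was 5.25 in WT and 3.98 in KO, and both are the values by which the gene was chosen. As a ratio of mean CPM the old level was 90.9 times the young level in WT. In KO the ratio was 10.9, and 200 with K5F5218 left out, since the young KO mean is 2.74 ± 6.34 CPM (n = 6) with that library and 0.15 ± 0.0898 CPM (n = 5) without it. That library held epididymis transcripts at a sum of 957 CPM. The other 2 KO libraries with such transcripts (K5F4284 and K5F5248) read 0.255 and 0.204 CPM of Slc5a7. A part of epididymal tissue in the Slc5a7 value of K5F5218 was not tested. The 4 young adipose libraries with Xist read 0 to 0.173 CPM. In whole tissue, more cells of a type and more RNA per cell cannot be told apart, for Slc5a7 or for any gene below.

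Between genotypes, old WT adipose tissue averaged 1.98 times the Slc5a7 level of old KO tissue, but the groups overlapped. The log2 difference, KO minus WT, was -0.998 (95% interval -2.22 to 0.23, SE 0.589, adjusted p = 1, limma). A two-sided exact permutation test over the 252 splits of these 10 libraries gave p = 0.0476, which became 0.0952 after adjustment over the 4 exact tests of Slc5a7 that were run. Slc5a7 was chosen by its values in these same 10 libraries, so these p-values are a description and no genotype difference is read from them. At 5 months only 3 of 12 adipose libraries exceeded 1 CPM, so Slc5a7 passed the filter on low values through the old libraries by which it was chosen. Its genotype difference at 5 months, and the change of that difference with age, are therefore not read.

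Outside adipose tissue Slc5a7 was near or below the limit of detection. Liver gave 0 reads in 22 libraries, which allows up to 0.153 to 0.265 CPM in a single library (3 reads, counting error only). In muscle all 10 young libraries had 0 reads. The 5 old WT muscle libraries read 0.203, 0.182, 0.058, 0.15 and 0.102 CPM, or 1 to 3 reads each. Of the 5 old KO muscle libraries, 3 had 0 reads, K18S61 read 0.571 CPM (9 reads) and K18S64 read 1.23 CPM (23 reads). The old and young WT muscle groups did not overlap, with 12 reads in the 5 old libraries and 0 reads in the 6 young ones. An exact permutation test over the 462 splits gave p = 0.00216 in WT (0.00866 after adjustment over the 4 exact tests of Slc5a7). In KO muscle an exact permutation test over the 126 splits gave p = 0.444 (0.593 after that adjustment). Each old WT library lies at or under 3 reads, the limit that a count of 0 allows in a single library. The size of the WT difference is therefore not read. The 2 old KO libraries with 9 and 23 reads lie above that limit. Adipocyte transcripts summed to 307 to 586 CPM in old muscle and 282 to 696 CPM in young muscle, and their part in the Slc5a7 reads was not tested.

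The order of the 12 group means of Slc5a7 was old WT adipose, old KO adipose, young KO adipose, young WT adipose, old KO muscle and old WT muscle, followed by 6 groups at 0. In that order all libraries of a group exceeded all of the next only between old KO and young KO adipose tissue and between old WT muscle and the groups at 0.

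**Figure D1:**
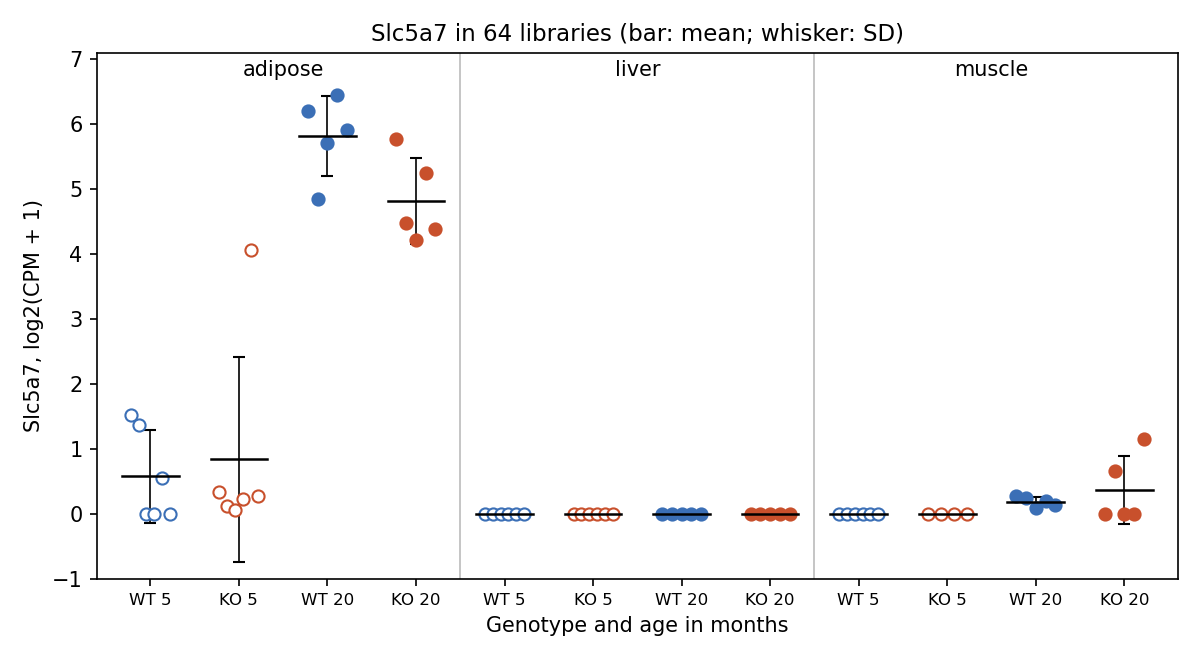
Slc5a7 as log2(CPM + 1) (vertical axis) in each of the 64 libraries, by tissue, genotype and age (horizontal axis); open points are 5 months, filled points 20 months, bars are group means and whiskers 1 SD. All 10 old adipose libraries lie above the 12 young ones, the nearest of which reads 15.7 CPM, and the liver points are all at 0.

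Slc5a7 is known as a marker of cholinergic neurons, so genes of those cells were set beside it. Chat, which makes acetylcholine, had 0 reads in all 64 libraries. Slc18a3, which loads it into vesicles, had 3 reads in all, in 2 young adipose libraries. A list of 12 neuronal genes summed to 9.99 to 30.4 CPM in young WT and 12 to 24.9 CPM in old WT adipose tissue, and to 7.58 to 23.3 CPM in young KO and 13.2 to 26.8 CPM in old KO tissue, ranges that overlap between the ages. The sum of 5 Schwann cell genes likewise ran from 23.7 to 65.3 CPM in young and from 30.9 to 47.4 CPM in old adipose tissue. The defining cholinergic markers were thus at or near 0 where Slc5a7 was high. Adipocyte sums overlapped between the ages in both genotypes. The sum of 4 B cell genes did not: it was 3.55 to 19.7 CPM in young and 23.8 to 167 CPM in old WT adipose tissue, and 4.05 to 6.45 and 10.1 to 35.7 CPM in KO. The sum of 5 T cell genes was 4.49 to 12.4 CPM in young and 13.8 to 50 CPM in old WT tissue, and overlapped in KO. The hepatocyte sum overlapped between the ages, at 478 to 4889 CPM in young and 155 to 550 CPM in old WT adipose tissue. In KO it was 1244 to 3838 and 109 to 1388 CPM. The medians of this sum were 3100 CPM in young and 366 CPM in old WT tissue, and 2398 and 509 CPM in KO. Most of it was Cyp2e1, with medians of 3055 and 211 CPM in WT and 2383 and 342 CPM in KO, while the other 5 genes summed to 3.41 to 281 CPM in young and 2.6 to 692 CPM in old adipose tissue. The part of any of these transcripts in the age differences of adipose tissue was not tested.

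The genes whose pattern was most like that of Slc5a7 over all 64 libraries were Klf14 (Pearson r = 0.962), Ryr2 (0.952), Gm46535 (0.952), Ptchd4 (0.948) and Pramel13 (0.943), out of 14286 genes detected in adipose tissue. These libraries share tissue and age, so the values are a description only. Klf14, a Krüppel-like transcription factor gene expressed from the maternal allele, averaged 1.25 ± 1.41 CPM in young WT and 10.4 ± 2.43 CPM in old WT adipose tissue, and 0.73 ± 1.2 and 6.78 ± 3.26 CPM in KO. Ryr2, a calcium release channel of the sarcoplasmic reticulum, averaged 0.311 ± 0.284 and 6.59 ± 1.55 CPM in WT, and 0.382 ± 0.686 and 5.92 ± 2.75 CPM in KO. Outside adipose tissue none of these 5 genes exceeded 0.509 CPM in any library. As they were picked for likeness to Slc5a7, their pattern over tissue and age follows from that choice.

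When the mean of each group was subtracted, which leaves only differences between libraries of a group, the highest r over the 22 adipose libraries were those of Unc79 (0.932), a gene without symbol (gene ID 101055837, 0.924), Adcy1 (0.864), Cfap43 (0.864) and Slc25a15 (0.856). Unc79 encodes a part of the sodium leak channel complex. It kept r = 0.887 without K5F5218, and the gene without symbol kept 0.897. Adcy1, Cfap43 and Slc25a15 fell to 0.554, 0.461 and 0.665, so their likeness rests in large part on that 1 library, where Cfap43, a cilium gene, read 22.7 CPM against at most 5.23 CPM in the other young adipose libraries. Among the other choline genes, Pcyt1a had the highest r with Slc5a7 over the adipose libraries (0.716, and 0.342 after the group means were subtracted), and Chpt1 the lowest (-0.569 and -0.23). After the group means were subtracted Chdh had the highest r (0.664, and 0.596 without K5F5218).

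**Figure D2:**
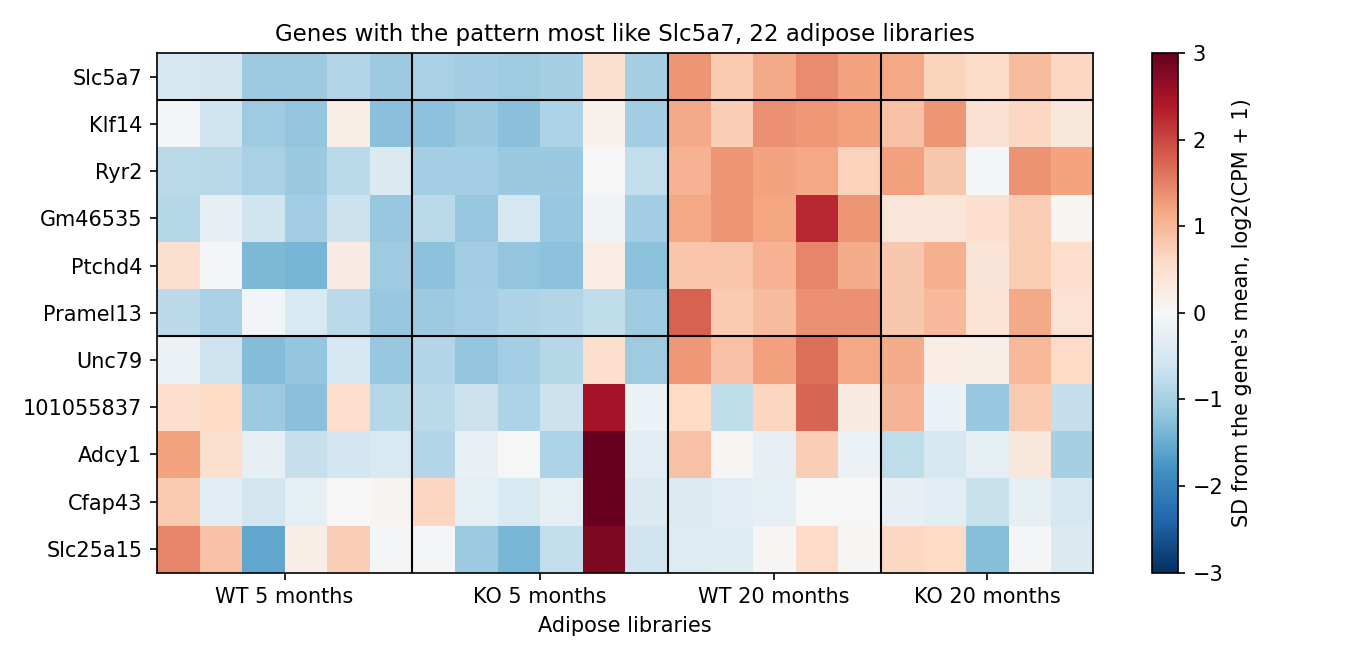
Slc5a7 (top), the 5 genes most like it over 64 libraries (middle) and the 5 most like it within adipose groups (bottom), in the 22 adipose libraries as SD from each gene's mean of log2(CPM + 1). The upper genes are high in both old groups, while Adcy1, Cfap43 and Slc25a15 stand out mainly in 1 young KO library (K5F5218).

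Most of these genes were called between tissues. In young WT mice, the group used to set the tissues side by side, 9 of the 10 genes passed the filter on low values (Slc5a7 did not). In liver against adipose tissue 9 of 9 were called, against 69.7% of all 14087 genes tested, 6 higher and 3 lower in liver. In liver against muscle 9 of 9 were called (73.1% of all genes), 7 higher and 2 lower. In adipose tissue against muscle 7 of 9 were called (68.9% of all genes), 4 higher and 3 lower in adipose tissue, and Chka and Bhmt were not. The background of these comparisons is itself large, and the shares say little of these genes in particular. With the values rescaled to plain reads by library total, the median of all genes moved by 0.97 lower in liver against adipose tissue, 0.20 lower in liver against muscle and 0.73 higher in adipose tissue against muscle (log2). The splits then became 5 higher and 3 lower, 6 and 2, and 5 and 2. Pcyt1a in liver against adipose tissue (0.95, to -0.18 after rescaling, adjusted p = 0.451) and Chkb in adipose tissue against muscle (-0.70, to 0.15, adjusted p = 0.36) lost their calls and changed sign. Slc44a1 in liver against muscle (0.43, to 0.16, adjusted p = 0.368) lost its call.

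The betaine genes and Pemt were liver genes in these data. Bhmt (gene ID 12116, chr13:93616891-93637758), betaine-homocysteine methyltransferase, ran from 3410 over a median of 8094 to 16254 CPM in young WT liver and from 0.0399 to 3.89 CPM in young WT adipose tissue. Its log2 difference of liver against adipose tissue was 11.98 (SE 0.47, adjusted p = 1.37e-14, limma). Pemt (gene ID 18618, chr11:59970614-60046561) averaged 341 ± 101 CPM in liver, 5.19 ± 1.8 CPM in adipose tissue and 1.2 ± 0.583 CPM in muscle (SD, n = 6 each). Chdh (gene ID 218865, chr14:30008901-30040468) averaged 287 ± 117 CPM in liver, 27 ± 26.7 CPM in adipose tissue and 0.392 ± 0.301 CPM in muscle. For these 3 genes all young WT liver libraries stood above all adipose and muscle libraries of that group.

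The kinases also were highest in liver, while the carriers and the later enzymes were not. Chka (gene ID 12660, chr19:3851585-3894369) averaged 84.4 ± 18.9 CPM in young WT liver, 16 ± 6.09 CPM in adipose tissue and 10.7 ± 7.1 CPM in muscle. Chkb (gene ID 12651, chr15:89426349-89429927) averaged 88 ± 23.1, 29.1 ± 3.79 and 48.1 ± 6.02 CPM in the same order. Slc44a2 (gene ID 68682, chr9:21320719-21355028), a choline transporter-like protein, was high in muscle at 204 ± 18.6 CPM and low in liver at 9.78 ± 1.49 CPM, with adipose tissue at 60.8 ± 25.2 CPM, and no library of one tissue overlapped with another. Slc44a1 (gene ID 100434, chr4:53440387-53622478), the broadly expressed carrier of its family, averaged 73.9 ± 14.5 CPM in adipose tissue, 46.7 ± 8.59 CPM in liver and 34.2 ± 3.84 CPM in muscle. Pcyt1a (gene ID 13026, chr16:32430921-32475065) was highest in muscle at 178 ± 39 CPM, against 105 ± 24.3 CPM in liver and 53.9 ± 13.3 CPM in adipose tissue. Chpt1 (gene ID 212862, chr10:88469513-88503970) was highest in adipose tissue at 861 ± 246 CPM, against 359 ± 78.7 CPM in liver and 169 ± 17.7 CPM in muscle, without overlap between tissues. Chkb overlaps 2 other RefSeq genes, Chdh 4, and Slc44a2, Pemt and Chpt1 1 each (Sycp3 for Chpt1), and how the authors shared reads among overlapping genes is not given in the sources used here.

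**Figure D3:**
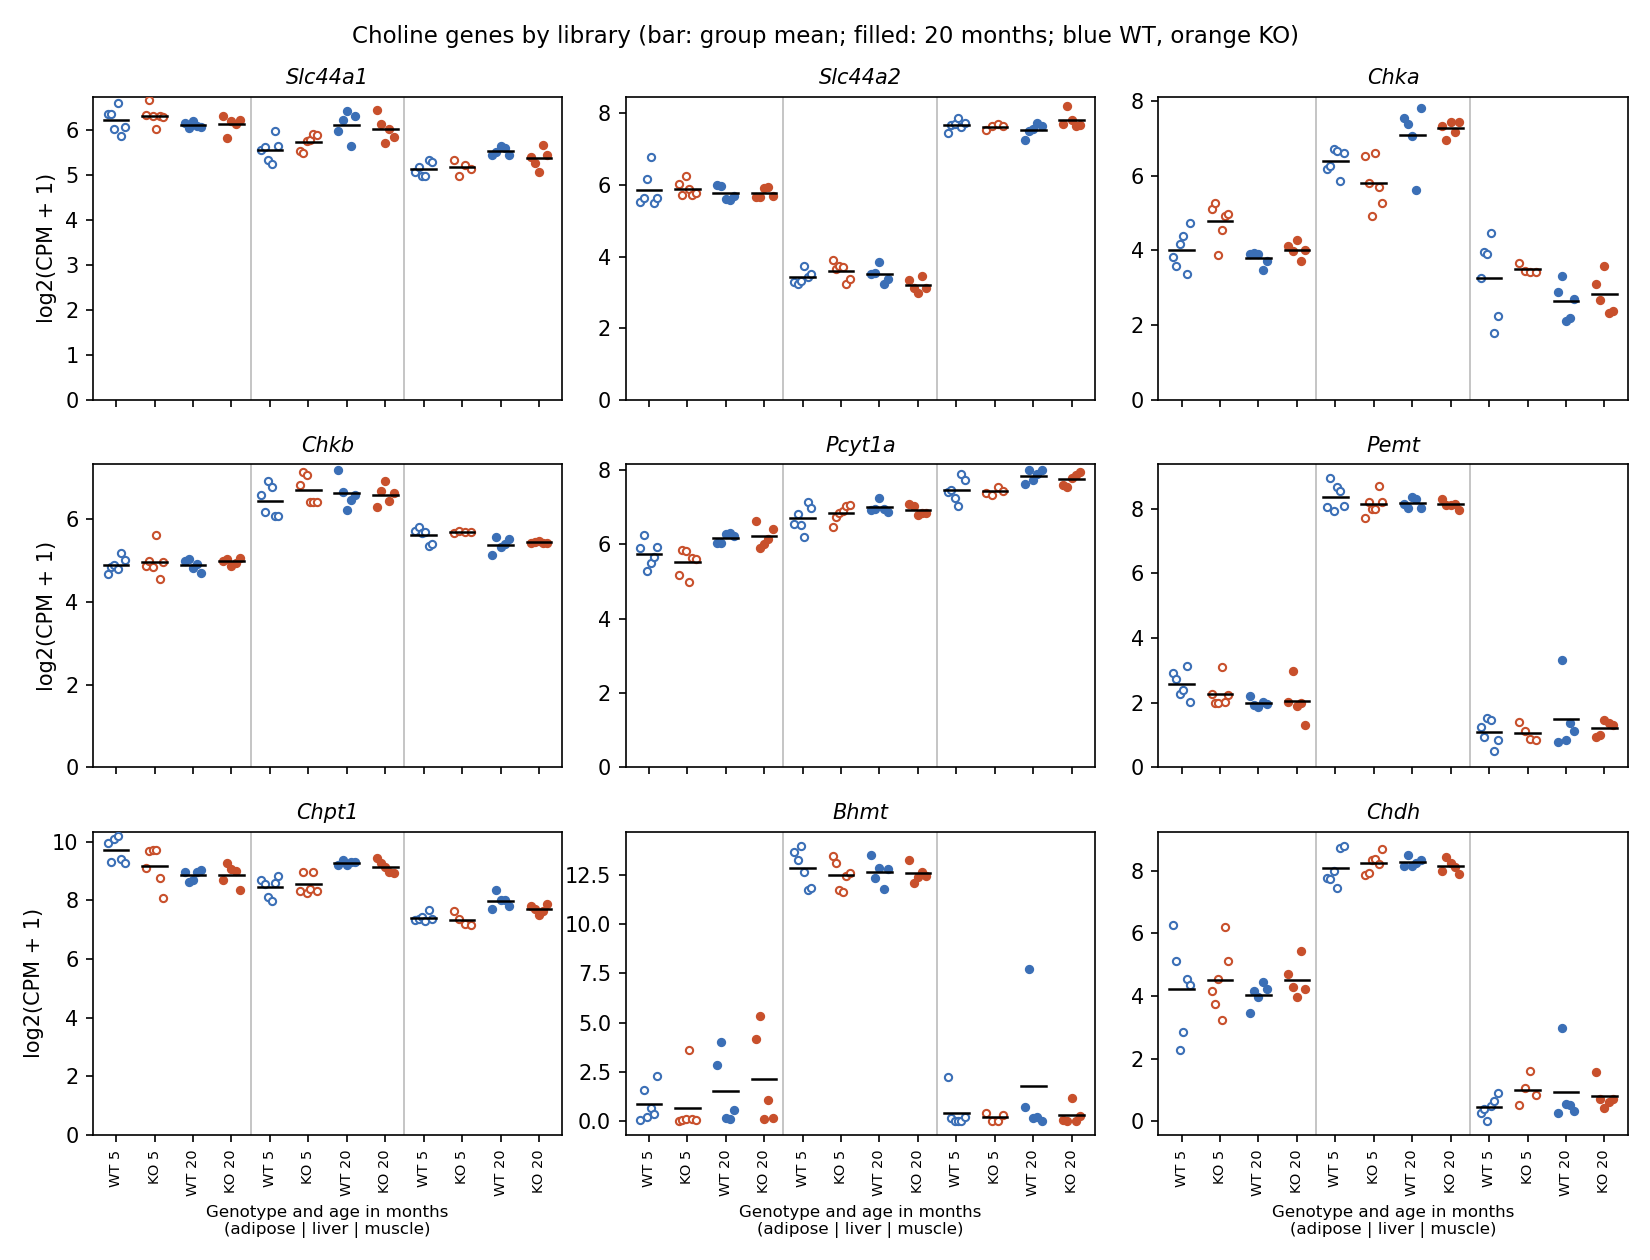
The 9 genes other than Slc5a7 as log2(CPM + 1) (vertical axes) in each library, by tissue (left to right adipose tissue, liver, muscle), genotype and age; bars are group means. Pemt, Bhmt and Chdh are highest in liver, Slc44a2 and Pcyt1a in muscle and Chpt1 in young adipose tissue, and a single old WT muscle library stands far above its group for Pemt, Bhmt and Chdh.

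Of 45 further choline genes (carriers, acetylcholine genes, lipid synthesis, methyl group genes and lipid turnover), 39 were tested between the tissues. In liver against adipose tissue 24 were higher and 8 lower (82.1%, all genes 69.7%), in liver against muscle 26 and 7 (84.6%, all genes 73.1%), and in adipose tissue against muscle 17 and 9 (66.7%, all genes 68.9%). After rescaling by library total the splits were 14 and 15, 25 and 10, and 23 and 4. Among the largest differences of liver against adipose tissue were those of Mat1a (12.31), which makes S-adenosylmethionine, Gnmt (10.35), which consumes it, and Dmgdh (9.32), which breaks down dimethylglycine. Against muscle, Mat1a, Dmgdh, Gnmt and the sarcosine dehydrogenase gene Sardh led, with 13.16, 9.36, 9.15 and 8.69. In adipose tissue against muscle the acetylcholine-cleaving enzyme Ache was lower (-4.62), and the related Bche (3.74), Slc44a3 (3.29) and Sardh (3.28) were higher.

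Inactivation of Myc was the study's main contrast, and none of the 10 genes was called in it in any tissue. In adipose tissue 0 of 10 were called at 5 months (Slc5a7 passed the filter there through the old libraries), against 0.105% of 14286 genes, and 0 of 10 at 20 months, against 0% of all genes. In liver 0 of 9 were called at 5 months (0.0696% of 12924 genes) and 0 of 9 at 20 months (0.0232%). In muscle 0 of 8 were called at 5 months (0% of 13237 genes) and 0 of 8 at 20 months (0.0302%). The difference of the genotype effect between the ages gave 0 calls in each tissue, for these genes and for all genes (0%). The adipose counts at both ages and for this difference include Slc5a7, whose tests there are not read. The backgrounds are so low that the counts say little of these genes in particular. Unadjusted p-values under 0.05 were found for 1 gene at 5 months in adipose tissue, for 0 at 20 months, for 0 and 1 in liver and for 0 and 2 in muscle, and for 1 gene in all (in liver) in the difference of the effects. edgeR called 0 genes in each of these comparisons and DESeq2 1, Chka in young adipose tissue.

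That Chka difference was the largest in young adipose tissue. KO libraries ran from 13.8 over a median of 29.9 to 37.7 CPM and WT libraries from 9.37 over 15.2 to 25.6 CPM. Of the 6 KO libraries 4 lay above all WT libraries, and the groups overlapped. Its log2 difference was 0.77 (SE 0.223, 95% interval 0.31 to 1.24, adjusted p = 0.209, limma). It was called by DESeq2 (0.85, adjusted p = 0.0381), without the libraries with Xist (1.19, adjusted p = 0.0159) and without K5F5116 (adjusted p = 0.0483). The 3 KO libraries with epididymis transcripts read 29.5 to 33.4 CPM and the 3 without read 13.8 to 37.7 CPM.

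At 20 months the sign and size of the uncalled genotype differences varied by gene. Slc44a2 read 8.26 ± 1.25 CPM in KO and 10.5 ± 1.83 CPM in WT liver, a log2 difference of -0.31 (95% interval -0.61 to -0.01, adjusted p = 0.842). In old muscle it read 226 ± 39.7 CPM in KO and 186 ± 22.2 CPM in WT, a difference of 0.27 (95% interval 0.04 to 0.50, adjusted p = 0.317). Chpt1 in old muscle read 208 ± 20.1 CPM in KO and 254 ± 46 CPM in WT (-0.27, 95% interval -0.53 to -0.02, adjusted p = 0.336). The widest interval among the genotype differences was that of Bhmt in adipose tissue at 20 months, -1.42 to 2.64. Of the 45 further choline genes 0 were called by limma, edgeR or DESeq2 in any genotype comparison, with 0 to 9 of the 34 to 38 tested at an unadjusted p under 0.05.

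Between 20 and 5 months, 4 of the 9 genes other than Slc5a7 were called in at least 1 tissue and genotype: Slc44a1, Chka, Pcyt1a and Chpt1. The share of all genes called ran from 2.99% to 18.6% in the 6 single comparisons. Over the 6 together that share was not counted, so the 4 genes are not read against it. The WT and KO age comparisons share no library, while each library serves both a genotype and an age comparison. Slc44a2, Chkb, Pemt, Bhmt and Chdh were not called with age in any tissue or genotype.

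In adipose tissue, 0 of 9 genes were called between 20 and 5 months in WT, against 10.8% of 14286 genes, and 2 of 9 in KO, against 14.2%. In WT 3 had an unadjusted p under 0.05, and edgeR and DESeq2 called 1 each. The median log2 difference of the 9 was -0.10 in WT and -0.12 in KO, with medians over all genes of 0.01 and 0.06. Pcyt1a rose in KO from 45.5 ± 10.6 CPM (n = 6) to 74.1 ± 15.6 CPM (n = 5), with the old libraries at 96.5, 58.1, 63.5, 69.4 and 83.1 CPM and no young one above 56.2 CPM. Its log2 difference was 0.70 (SE 0.182, adjusted p = 0.0165, limma), and 0.0676 and 0.0547 were the adjusted p without K18F26 and K18F30. In WT, Pcyt1a averaged 53.9 ± 13.3 and 71.3 ± 6.42 CPM (0.43, 95% interval 0.05 to 0.80, adjusted p = 0.121).

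Chka fell in KO adipose tissue from 27.8 ± 8.56 to 15.3 ± 2.29 CPM, with old libraries at 16.3, 14.8, 18.4, 12.1 and 15 CPM against 13.8 to 37.7 CPM in young ones. On the log2 scale this was a difference of -0.77 (SE 0.234, adjusted p = 0.0352). The call was lost without the 3 KO libraries with epididymis transcripts (-0.55, adjusted p = 0.138), without a filter (0.0623), after rescaling (0.0505) and in 7 of 11 fits that left out 1 library (K18F26, K18F27, K18F29, K18F30, K5F4284, K5F4285 and K5F5248, 0.0553 to 0.0951). In WT it averaged 16 ± 6.09 and 12.9 ± 1.74 CPM (-0.22, adjusted p = 0.543).

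Chpt1 was lower in old than in young WT adipose tissue without overlap, just outside the threshold. The young WT libraries ran from 617 over a median of 829 to 1161 CPM, and the old ones read 503, 391, 413, 497 and 527 CPM. The log2 difference was -0.84 (SE 0.274, 95% interval -1.41 to -0.27, adjusted p = 0.0508, limma). It passed with edgeR (adjusted p = 0.0325), DESeq2 (0.00662), after rescaling (0.0304), without the 4 libraries with epididymis transcripts (0.00511), without W5F5299 alone (0.0333) and without W5F5006 (0.042). In KO the difference was -0.31 (adjusted p = 0.449). There the 3 young libraries with epididymis transcripts read 270 to 547 CPM and the 3 without read 819 to 847 CPM. Without libraries with such transcripts the KO difference was -0.84 (adjusted p = 0.0246).

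In liver, 2 of 9 genes were called with age in WT, against 7.19% of 12924 genes, and 2 of 9 in KO, against 2.99%. The median log2 difference of the 9 was 0.21 in WT and 0.08 in KO, with medians over all genes of -0.01 and -0.02. Rescaling by library total raised the median of all genes by 0.18 and 0.17, and the called genes kept their direction. Chpt1 rose in both genotypes. In WT it went from 359 ± 78.7 CPM (252 to 452 CPM) to 620 ± 31.3 CPM, with old libraries at 583, 661, 594, 631 and 628 CPM and no overlap. This is a log2 difference of 0.82 (SE 0.163, adjusted p = 0.00453, limma), and it was called in all 6 alternatives and all 11 fits that left out 1 library (adjusted p up to 0.0316). In KO it went from 381 ± 94.1 to 571 ± 89.2 CPM (0.60, SE 0.163, adjusted p = 0.0455), with old libraries at 700, 614, 560, 494 and 486 CPM against 305 to 503 CPM in young ones. That call was lost without a filter (0.0727), without the libraries with Xist (0.0651) and in 9 of 11 fits that left out 1 library, all but those without K5L4285 and K5L5218 (0.0621 to 0.127).

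Chka rose in KO liver from a young range of 29.2 over a median of 53.4 to 97.1 CPM to 160, 124, 174, 144 and 172 CPM, without overlap. Its log2 difference was 1.46 (SE 0.321, 95% interval 0.79 to 2.12, adjusted p = 0.0194, limma), and the adjusted p was 0.0559 without K18L10. In WT the old libraries read 187, 167, 134, 47.7 and 225 CPM and the young ones 57.5 to 104 CPM. There 4 of 5 old libraries stood above all young ones and W18L04 below them, and the difference was 0.71 (adjusted p = 0.17, and 0.0234 without W18L04). Chka thus was called in KO and not in WT liver, and the difference of the age effects between the genotypes was 0.75 (95% interval -0.19 to 1.69, adjusted p = 0.991).

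Slc44a1 rose in WT liver from 46.7 ± 8.59 to 69.5 ± 14.3 CPM, with old libraries at 61.5, 73.9, 84.6, 48.9 and 78.3 CPM. On the log2 scale this was a difference of 0.56 (SE 0.153, adjusted p = 0.03). It was not called without the libraries with Xist (0.42, adjusted p = 0.186) and in 6 of 11 fits that left out 1 library (W18L02, W18L03, W18L05, W5L5004, W5L5041 and W5L5042, 0.0526 to 0.0863). In KO liver it read 52.1 ± 6.36 and 65 ± 13.6 CPM (0.30, 95% interval -0.02 to 0.61, adjusted p = 0.291). Slc44a2 in KO liver read 11.3 ± 2.05 and 8.26 ± 1.25 CPM (-0.41, adjusted p = 0.11, and 0.0437 without K5L5218).

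In muscle, 3 of 8 genes were called with age in WT, against 18.6% of 13237 genes, and 0 of 8 in KO, against 5.57%. In KO, limma gave 3 genes with an unadjusted p under 0.05, edgeR called 0 and DESeq2 1 (Chpt1, adjusted p = 0.0315). Of the uncalled genes in KO muscle, Pcyt1a ran from 159 to 184 CPM in young and from 185 to 243 CPM in old libraries. Chkb ran from 50.2 to 51.4 CPM in young and from 42 to 43.8 CPM in old KO libraries. Neither overlapped between the ages, and the share of all genes without overlap was not counted. The median difference of the 8 was 0.39 in WT and 0.17 in KO, with medians over all genes of 0.03 and -0.02. Rescaling raised the median of all genes in KO by 0.12, and Chpt1 was then called (0.51, adjusted p = 0.0347). Chpt1 rose in WT from 169 ± 17.7 CPM (155 to 203 CPM) to 254 ± 46 CPM, with old libraries at 208, 326, 259, 257 and 220 CPM and no overlap. The log2 difference was 0.57 (SE 0.115, adjusted p = 0.00527, limma), called in all 6 alternatives and all 11 fits that left out 1 library (adjusted p up to 0.0288). The highest value, 326 CPM, belongs to W18S42, the library with hepatocyte transcripts. In KO muscle Chpt1 read 161 ± 24.9 and 208 ± 20.1 CPM (0.37, 95% interval 0.10 to 0.64, adjusted p = 0.0863).

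Slc44a1 rose in WT muscle from 34.2 ± 3.84 to 45 ± 2.83 CPM, with old libraries at 42.1, 44.2, 48.6, 47.1 and 42.7 CPM, all above the young maximum of 39.4 CPM. This is a log2 difference of 0.39 (SE 0.105, adjusted p = 0.0174). It was lost without the libraries with Xist (0.31, adjusted p = 0.116). Pcyt1a rose in WT muscle from 178 ± 39 to 228 ± 27.2 CPM, with old libraries at 193, 254, 208, 233 and 253 CPM and a young range of 129 to 236 CPM. Its log2 difference was 0.38 (SE 0.129, adjusted p = 0.0462). That call was lost with edgeR (0.0697), without a filter (0.078), without the libraries with Xist (0.269) and in 8 of 11 fits that left out 1 library (W18S42, W18S45, W18S66, W18S72, W5S5004, W5S5007, W5S5041 and W5S5042, 0.0569 to 0.116). Without W5S5277, Chka (-0.93, adjusted p = 0.0452) and Chkb (-0.27, adjusted p = 0.0265) were called as well. That library read 2.49 CPM of Chka, the lowest of a young range up to 21 CPM.

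**Figure D4:**
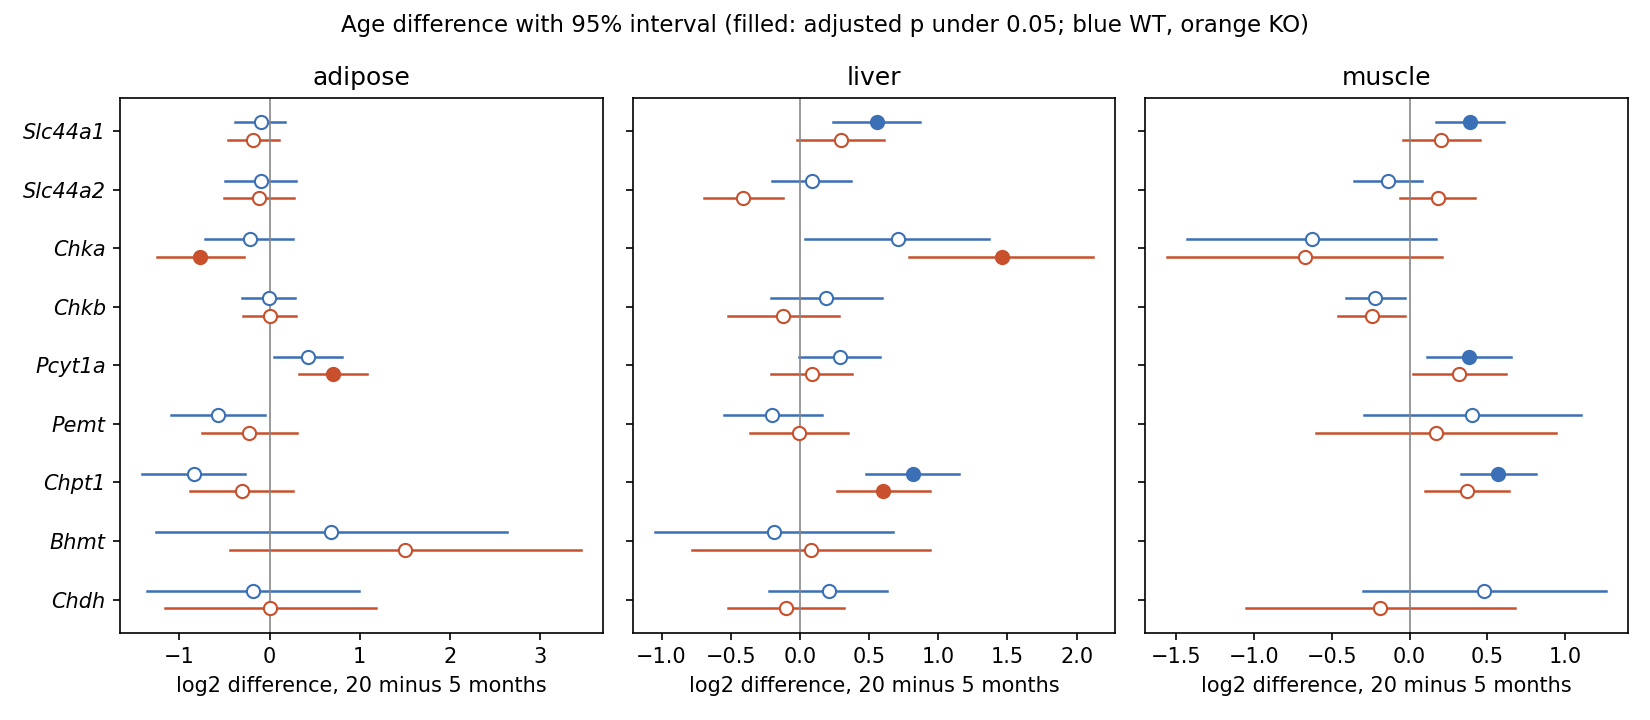
Log2 difference between 20 and 5 months (horizontal axes, 20 minus 5 months, log2(CPM + 1)) of the 9 genes other than Slc5a7 in adipose tissue, liver and muscle, WT in blue and KO in orange; lines are 95% intervals and filled points passed an adjusted p under 0.05. Chpt1 lies at -0.84 in WT adipose tissue and at 0.82 and 0.57 in WT liver and muscle, and Bhmt was not tested in muscle.

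The age difference of Chpt1 in WT mice pointed opposite ways in adipose tissue and in the other tissues. A test of the difference of WT ageing between tissues, added after these values were seen and fitted over the WT libraries of all tissues, put liver above adipose tissue by 1.66 (SE 0.233, 95% interval 1.18 to 2.13, adjusted p = 1.73e-05) and adipose tissue below muscle by 1.41 (log2 difference -1.41, SE 0.233, adjusted p = 0.000176). Both were called in all 8 alternatives, the code number as a block among them (1.67 and -1.42), and in all 22 fits that left out 1 library. Liver and muscle differed by 0.25 (95% interval -0.23 to 0.72, adjusted p = 0.613). Slc44a1 rose more in liver than in adipose tissue by 0.66 (SE 0.188, adjusted p = 0.0302), which was lost in 7 of 22 fits that left out 1 library (adjusted p 0.0513 to 0.0619, W18F22, W18F25, W5F5042, W18L02, W18L03, W18L05 and W5L5041) and without the libraries with Xist (0.147). Of the choline genes tested 2 of 9, 0 of 10 and 1 of 9 were called for liver against adipose tissue, liver against muscle and adipose tissue against muscle, against 6.36%, 3.26% and 15.9% of 15229 genes. The count of 10 includes Slc5a7, which passed the filter through the old adipose libraries by which it was chosen. Its result for liver against muscle is not read. For liver against muscle 1 gene had an unadjusted p under 0.05, and edgeR called 0 and DESeq2 2, Chka and Bhmt.

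Bhmt outside the liver is given here beside Alb, the serum albumin gene and one of the hepatocyte markers. Of 42 adipose and muscle libraries 11 read more than 1 CPM of Bhmt, and these held 12.8 to 1970 CPM of Alb, with a median of 52.7 CPM. The other 31 held 0 to 43.5 CPM of Alb, with a median of 1.67 CPM. The highest Bhmt level outside the liver, 214 CPM, was in W18S42, with 1970 CPM of Alb. K18F27 and K18F26 followed with 39.4 and 16.9 CPM of Bhmt beside 514 and 206 CPM of Alb, then W18F22 with 15.4 beside 132 CPM and K5F5118 with 11.3 beside 215 CPM. In all 11 libraries there were 4.55 to 16.3 CPM of Bhmt for each 100 CPM of Alb, and in the 22 liver libraries 3.64 to 16 CPM. Another 6 libraries held over 10 CPM of Alb with less than 1 CPM of Bhmt, and in these there were 0.323 to 1.66 CPM of Bhmt for each 100 CPM of Alb. The sum of all 6 hepatocyte genes, mostly Cyp2e1, did not follow Bhmt in adipose tissue. It was 358 to 3217 CPM in the 8 adipose libraries with more than 1 CPM of Bhmt and 109 to 4889 CPM in the 14 others, the highest of which, W5F5041, read 0.165 CPM of Bhmt. The part of hepatocyte RNA in the Bhmt values was not tested. The age and genotype differences of Bhmt in adipose tissue, none of them called, rest on these libraries: old KO read 16.9, 39.4, 0.0979, 1.1 and 0.106 CPM. Pemt (8.97 CPM) and Chdh (6.85 CPM) were also at their group's highest in W18S42, where the next highest libraries read 1.6 and 0.464 CPM.

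**Figure D5:**
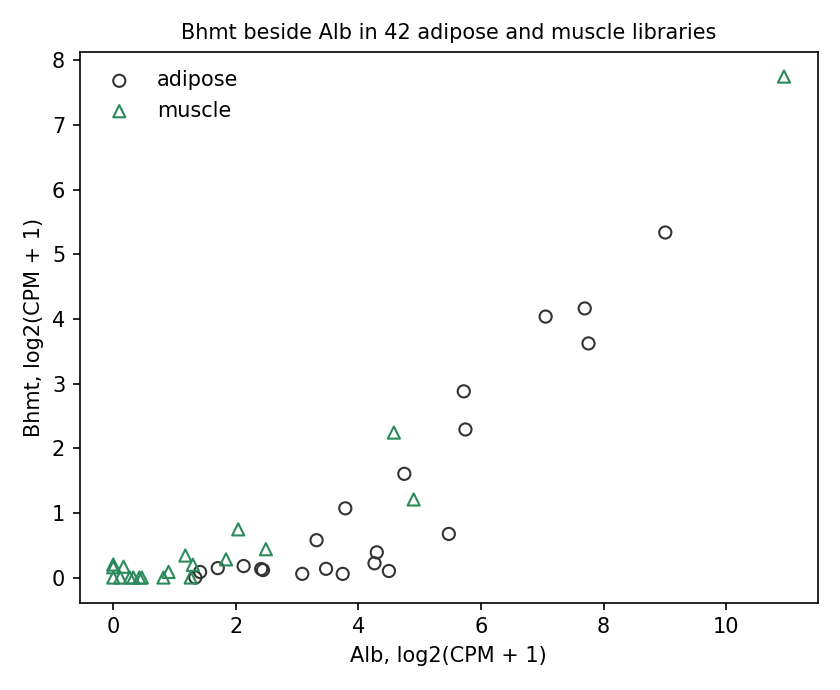
Bhmt (vertical axis) against Alb (horizontal axis), both as log2(CPM + 1), in the 22 adipose (circles) and 20 muscle (triangles) libraries. The 11 libraries with more than 1 CPM of Bhmt hold at least 12.8 CPM of Alb, and the single muscle library at the upper right reads 214 CPM of Bhmt beside 1970 CPM of Alb.

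Calls with age among the 45 further choline genes are set beside the shares over all genes, with no test between them. In WT adipose tissue 1 of 38 tested was higher and 2 lower (7.89%, all genes 10.8%, median difference -0.08), and in KO 4 were higher and 2 lower (15.8%, all genes 14.2%, median 0.08). In WT liver 1 of 38 was higher and 5 lower (15.8%, all genes 7.19%, median -0.02), and in KO 0 were higher and 2 lower (5.26%, all genes 2.99%, median -0.06). In WT muscle 4 of 34 were higher and 3 lower (20.6%, all genes 18.6%, median 0.05), and in KO 2 were higher and 0 lower (5.88%, all genes 5.57%, median 0.07). The directions depend on the scaling: by library total the splits were 4 higher and 2 lower in WT liver and 1 and 1 in KO liver, 1 and 2 in WT and 2 and 2 in KO adipose tissue, and 6 and 3 in WT and 5 and 0 in KO muscle.

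In WT liver the falls included 2 genes of the methyl group cycle that Bhmt feeds, out of 9 further betaine and methyl group genes tested (all genes 7.19%). In KO liver 0 of those 9 were called (all genes 2.99%). The difference of the genotype effect between the ages gave 0 calls among the 9 and 0% over all genes. No difference between the genotypes is therefore read from these counts. Gnmt, glycine N-methyltransferase, fell from 2584 ± 1176 to 1068 ± 218 CPM (log2 difference -1.20, SE 0.25, adjusted p = 0.00593, limma). Ahcy, which splits S-adenosylhomocysteine to homocysteine, fell from 6522 ± 1513 to 3317 ± 409 CPM (-0.95, SE 0.193, adjusted p = 0.00527). The young libraries ran from 1549 to 4862 CPM of Gnmt and from 4465 to 8045 CPM of Ahcy. For both genes old and young libraries did not overlap, and both were called in all 6 alternatives and all 11 fits that left out 1 library. The choline and haem carrier gene Flvcr1 fell from 5.42 ± 1.89 to 2.78 ± 0.546 CPM (-0.73, adjusted p = 0.0262), and Selenoi, which makes phosphatidylethanolamine, rose from 82.3 ± 15.8 to 119 ± 9.22 CPM (0.55, adjusted p = 0.0391). The Flvcr1 call was lost without W18L02, W18L04, W5L5004 or W5L5041 (0.0567 to 0.0761), and the Selenoi call without any one of W18L02, W18L03, W18L04, W18L05, W5L5004, W5L5005, W5L5041 and W5L5042 (0.058 to 0.0953). Both also lost their calls without a filter (0.0538 for Flvcr1 and 0.0632 for Selenoi) and without the libraries with Xist (0.0702 and 0.142), and Flvcr1 after rescaling (0.0971). The other called genes there, Etnk2 and Gpcpd1, lost their calls in the same 3 settings (0.051 to 0.187), Etnk2 also with edgeR (0.0512). They overlapped between ages, and are named, like the other overlapping genes in this and the next paragraph, after their values were seen. In KO liver Ptdss2, a phosphatidylserine synthase, fell from 23.8 ± 4.06 to 14.4 ± 1.79 CPM (-0.67, adjusted p = 0.02). Gpcpd1 was also called lower there, and lost its call without a filter (0.0731) and without any one of K18L06, K18L07, K18L09, K18L10, K5L4284, K5L4285, K5L5116 and K5L5248 (0.0651 to 0.107). The Ptdss2 call was lost after rescaling (-0.47, adjusted p = 0.0728) and without K18L09, K18L10 or K5L4285 (0.0515 to 0.0621).

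In adipose tissue Gde1, a glycerophosphodiester phosphodiesterase, fell in WT from 188 ± 126 to 40.5 ± 3.78 CPM without overlap (-1.86, SE 0.509, adjusted p = 0.0251) and in KO from 217 ± 164 to 60.7 ± 31.1 CPM (-1.58, adjusted p = 0.0434). The WT call was lost without W18F22, W18F23, W18F25, W5F5041 or W5F5042 (0.0534 to 0.0652) without a filter (0.0524) and without the libraries with Xist (0.155). The KO call was lost without a filter (0.081) and without any one of K18F26, K18F27, K18F29, K18F30, K5F4284, K5F4285 and K5F5118 (0.0567 to 0.11). In WT the sphingomyelin synthase gene Sgms1 rose (0.72, adjusted p = 0.0123), in all 7 alternatives and all 11 fits that left out 1 library, and Flvcr2 fell (-1.36, adjusted p = 0.0423), a call lost without the libraries with Xist (-0.68, adjusted p = 0.233), without a filter (0.0864) and in 8 of those 11 fits, those without W18F21, W18F22, W18F23, W18F24, W18F25, W5F5041, W5F5042 or W5F5299 (0.0519 to 0.105). In KO Lypla1, Flvcr1, Sardh and Pisd rose and Slc44a4 fell. The Pisd call was lost with edgeR (0.0764), DESeq2 (0.0547), after rescaling (0.0914), without a filter (0.0507), without libraries with epididymis transcripts (0.195) and without any one of K18F26, K18F29, K18F30, K5F4284, K5F4285, K5F5218 and K5F5248 (0.0509 to 0.134). The Sardh call was lost without a filter (0.0539), without libraries with epididymis transcripts (0.065) and without any one of K18F26, K18F27, K18F29, K5F4284, K5F4285 and K5F5248 (0.0502 to 0.0811). The Flvcr1 call was lost without a filter (0.0519), after rescaling (0.0619), without the libraries with Xist (0.0741) and without K18F26, K18F29, K18F30 or K5F5118 (0.0529 to 0.104). The Lypla1 call was lost without libraries with epididymis transcripts (0.0662) and without K18F26 or K18F29 (0.07 and 0.0516). Slc44a4 read 15.9 to 30 CPM in the 3 young KO libraries with epididymis transcripts and 0.254 to 11.4 CPM in the 3 without. In muscle the cholinesterase gene Bche rose in WT from 4.27 ± 0.786 to 9.85 ± 5.27 CPM (0.94, adjusted p = 0.0117) and in KO from 4.17 ± 1.24 to 8.72 ± 2 CPM (0.91, adjusted p = 0.0433). Etnk1, ethanolamine kinase, rose by 0.56 in WT and 0.55 in KO (adjusted p = 0.0124 and 0.0453). Both KO calls were lost in every fit that left out 1 library except that without K18S48 (adjusted p 0.0529 to 0.167), while both WT calls were kept in all 11. Lypla1, a lysophospholipase, rose in WT from 91.1 ± 4.59 to 130 ± 25 CPM without overlap (0.49, adjusted p = 0.00692), also in all 11 such fits. Gde1 was also called higher in old WT muscle, and the phospholipase genes Pnpla7 and Pld1 and the acyltransferase gene Lpcat4 lower. These 4 calls and that of Etnk1 in WT were lost without the libraries with Xist (adjusted p 0.0756 to 0.16), and those of Gde1, Pld1 and Lpcat4 also without a filter (0.0563 to 0.0601). Leaving out any one of W18S45, W18S66 and W5S5042 ended the calls of these 3 genes (0.0572 to 0.1), W18S42, W5S5004 or W5S5007 those of Gde1 and Pld1 (0.0503 to 0.123), and W5S5041 those of Gde1 and Lpcat4 (0.0667 and 0.0602). The KO calls of Bche and Etnk1 were lost without the libraries with Xist (0.126 and 0.0847) and without a filter (0.0851 and 0.0751).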

How the data were processed

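Omental adipose tissue, liver and skeletal muscle were profiled by strand-specific RNA sequencing of poly-A RNA, per the labels' protocols. The deposited signal is a table of 36333 entries scaled per library by the authors, which the file headers name CPM from the CLC software; builds GRCm38.p6 and mm10 are named in the submitters' processing notes, and aligner settings, annotation and use of strand are not given in the sources used here. Column sums ran from 0.529 to 1.64 M (mega). The values were whole multiples of 1 read in 100% of cases (tolerance 0.01 read), which gave back the reads (15.4 to 28.5 M a library; 996 IDs without symbol held 0.155%).

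Log2(CPM + 1) of the deposited values was fitted per tissue with limma 3.58.1 (R 4.3.3, intensity trend, 4 groups) on genes over 1 CPM in a number of libraries equal to the smallest group or more, with Benjamini-Hochberg adjustment over all genes tested. Tissues were compared in one fit of young WT libraries. Alternatives were a pseudocount of 0.1 (Slc5a7), no filter, edgeR 4.0.16 and DESeq2 1.42.0 on the recovered reads, and recovered reads scaled by library total. Further alternatives were fits without each library, without libraries with Xist above the Y-linked sum and without adipose libraries that hold over 10 CPM of epididymis transcripts. Fits across tissues were also run with the code number as a block, added for ageing after the data were seen. Intervals are at 95% and floors at 3 reads, and both floors and exact counts cover counting error only. The fits were tested on simulated data.

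The 10 genes and all lists were chosen with earlier results of these data known. Of 45 further choline genes, those called without overlap between groups are named with values, up to 4 per comparison by size, and of genes like Slc5a7 the 5 with the highest Pearson r. A further gene that this rule names is not reported here.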

Additional observations from a re-analysis of the deposited data

Results flagged for a closer look

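In 111 groups of 4 to 6 libraries the most extreme value of each of the 10 genes was compared with the rest, and in 15 groups 1 library stood apart by Dixon's 95% critical value. Chance gives about 1 in 20 for normally distributed values. The comparison was made on CPM, where genes near 0 need not follow that shape, so the count is not read as an excess. Slc5a7 was at 15.7 CPM in K5F5218, young KO adipose tissue, with the others at 0.0363 to 0.255 CPM. W18S42, old WT muscle, stood apart for Bhmt (214 CPM), Pemt (8.97 CPM) and Chdh (6.85 CPM), and K5F5118, young KO adipose tissue, for Bhmt (11.3 CPM), Pemt (7.62 CPM) and Chkb (48.5 CPM). Bhmt also stood apart in W5S5004, young WT muscle (3.73 CPM), and K18S62, old KO muscle (1.31 CPM), and Pemt in K18F27, old KO adipose tissue (6.92 CPM). The remaining 5 were Slc44a2 in K18S61, old KO muscle (295 CPM), Chka in K5S4284, young KO muscle (11.7 CPM), Pcyt1a in W18L03, old WT liver (151 CPM), Chpt1 in W5S5277, young WT muscle (203 CPM) and Chdh in K18S48, old KO muscle (1.99 CPM).

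Chpt1 in WT mice was lower at 20 months in every old adipose library (-0.84, log2) and higher in every old library of liver (0.82) and muscle (0.57). The difference between the tissues was tested only after these values were seen. Liver exceeded adipose tissue by 1.66 and adipose tissue stood at -1.41 against muscle (adjusted p = 1.73e-05 and 0.000176, limma). In the same added test Slc44a1 differed by 0.66 between liver and adipose tissue (adjusted p = 0.0302).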

How the results depend on the processing

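Counts of the 10 genes called moved by over 1.5 times under these settings. In adipose tissue, KO against WT at 5 months gave 1 with DESeq2 and 1 without libraries with Xist (0 in the reported fit); ageing in WT gave 1 with edgeR, DESeq2, values scaled by library total or without epididymis transcripts (0), and ageing in KO 1 without a filter or by library total (2). Ageing gave 1 in WT liver without the Xist libraries (2), 1 in KO liver without a filter or those libraries (2), 1 in WT muscle without those libraries (3) and 1 in KO muscle with DESeq2 or by library total (0). The difference of WT ageing gave 1 for liver against adipose tissue without those libraries (2), 2 for liver against muscle with DESeq2 (0), and for adipose tissue against muscle 2 with edgeR, 3 with DESeq2 and 2 without epididymis transcripts (1). Leaving out 1 library at a time gave 0 to 1 for KO against WT in young adipose tissue, 0 to 1 and 0 to 2 for adipose ageing in WT and KO, 1 to 3 and 0 to 3 for liver, 2 to 5 for WT muscle, and 1 to 2, 0 to 1 and 1 to 2 for the differences of WT ageing in the order above. With a pseudocount of 0.1 the Slc5a7 age difference was 7.31 in WT and 5.85 in KO, and with 1 library left out 5.09 to 5.49 and 3.74 to 4.63. Pcyt1a in liver against adipose tissue (-0.18) and Chkb in adipose tissue against muscle (0.15) changed sign by library total, where the median of all genes moved as well. Other causes were not tested. Tissues share code numbers at 5 months, and all 12 shared numbers, KO included, had the same Xist state in every tissue. Of 14 same-numbered WT pairs 11 correlated above 0.1 (-0.0744 to 0.315). The labels do not say that a number marks an animal, and 3 pairs lay at or under 0.1, so the reported fits have no block. With the replicate block the counts were 9, 9 and 7 between tissues and 2, 0 and 1 for the differences of WT ageing, as without it. Slc5a7 had 0 reads in liver and 0 to 23 reads a library in muscle.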
